A study of Sus scrofa with 16 samples.

Results

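The genes described here encode the synaptic vesicle and the machinery that releases its content: proteins of the vesicle membrane, the glutamate transporters that fill it, the SNARE proteins that fuse it, the calcium sensors, the active zone where it docks and the proteins that retrieve it. They were taken by name from a list of 38 gene symbols. Of these, 26 were found among the pig gene identifiers of the expression table, each with 1 entry, and all 26 passed the filter on low values, which kept entries averaging 0.5 FPKM or more in the 16 pigs. They stood among 13590 entries tested, out of 22815 in the table. The other 12 symbols, SYN3, SYPL1, SNAP25, VAMP1, VAMP2, SYT4, CPLX1, CPLX2, RAB3C, RIMS2, UNC13A and PCLO, were not matched to an identifier and are not analysed here, so the SNARE proteins of the vesicle and several active zone proteins are missing from the account.

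The hippocampi came from preterm pigs that were delivered by Cesarean section and given human donor milk together with parenteral nutrition, a regimen under which some animals develop necrotizing enterocolitis (NEC) without further treatment. All 3 groups shared the delivery and this general regimen, and the labels name no genetic change. The study used different types of donor milk, and how these fell across the groups is not known here. The 6 Si-NEC pigs (3 female, 3 male) had severe lesions of the small intestine, whether or not the colon was also affected, the 5 Co-NEC pigs (2 female, 3 male) had severe lesions of the colon alone, and the 5 No NEC pigs (2 female, 3 male) had no visible lesions. Each library was made from total RNA of 1 frozen left hippocampus, and the labels give no age for single pigs. The pigs differed in the site of spontaneous lesions and were not assigned to the lesion groups. The lesion and anything that led to it or went with it, such as the type of milk, therefore cannot be told apart.

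At a chemical synapse, vesicles are loaded with transmitter, tethered near the active zone, docked and primed, and fused with the plasma membrane when calcium enters the terminal. The vesicle membrane is then recovered by endocytosis and used again. In the hippocampus most of these terminals are glutamatergic, the number of synapses grows steeply around birth, and transcripts of release genes are made by neurons and are therefore often read as a sign of neuronal content. In RNA from whole tissue, fewer neurons and less RNA per neuron cannot be told apart.

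The expression values were deposited as FPKM (fragments per kilobase of transcript, scaled to the fragments of the library), a level per length that allows genes to be compared with each other within a library. The depth of the libraries is unknown. The FPKM values of all entries summed to 544629 to 645197 in 14 of the pigs, 864931 in the No NEC pig 230-15 and 823320 in the Si-NEC pig 223-15. These last 2 pigs also stood apart across genes: 58.0% and 50.7% of all tested entries lay above or below every one of the other 14 pigs, so fold changes of the release genes are also given without them where this turned the sign or moved the value by more than 1.5 times. Of 8 listed hippocampal neuron genes, 5 were found, with means over the 16 pigs of 62.9 FPKM for LHX2, 18.4 for BCL11B, 8.48 for NEUROD1, 7.9 for PROX1 and 4.6 for ZBTB20.

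The release genes were among the most abundant transcripts of the hippocampus. Their median level was 92.5 FPKM, against 9.44 FPKM over all entries tested, and 16 of the 26 lay above the 90th percentile of all entries tested. SLC17A7, the vesicular glutamate transporter VGLUT1, was the highest member in 14 of the 16 pigs, and SYP, synaptophysin, was the highest in the pigs 230-15 and 223-15. The 5 highest members, SLC17A7, SYP, DNM1, SYT1 and SYN2, together made up 49.9% to 56.8% of the summed FPKM of the 26 in each pig. At the other end, SLC17A6, UNC13B and SYT2 stayed under 10 FPKM on average and below the 50th percentile of all entries.

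**Figure D1:**
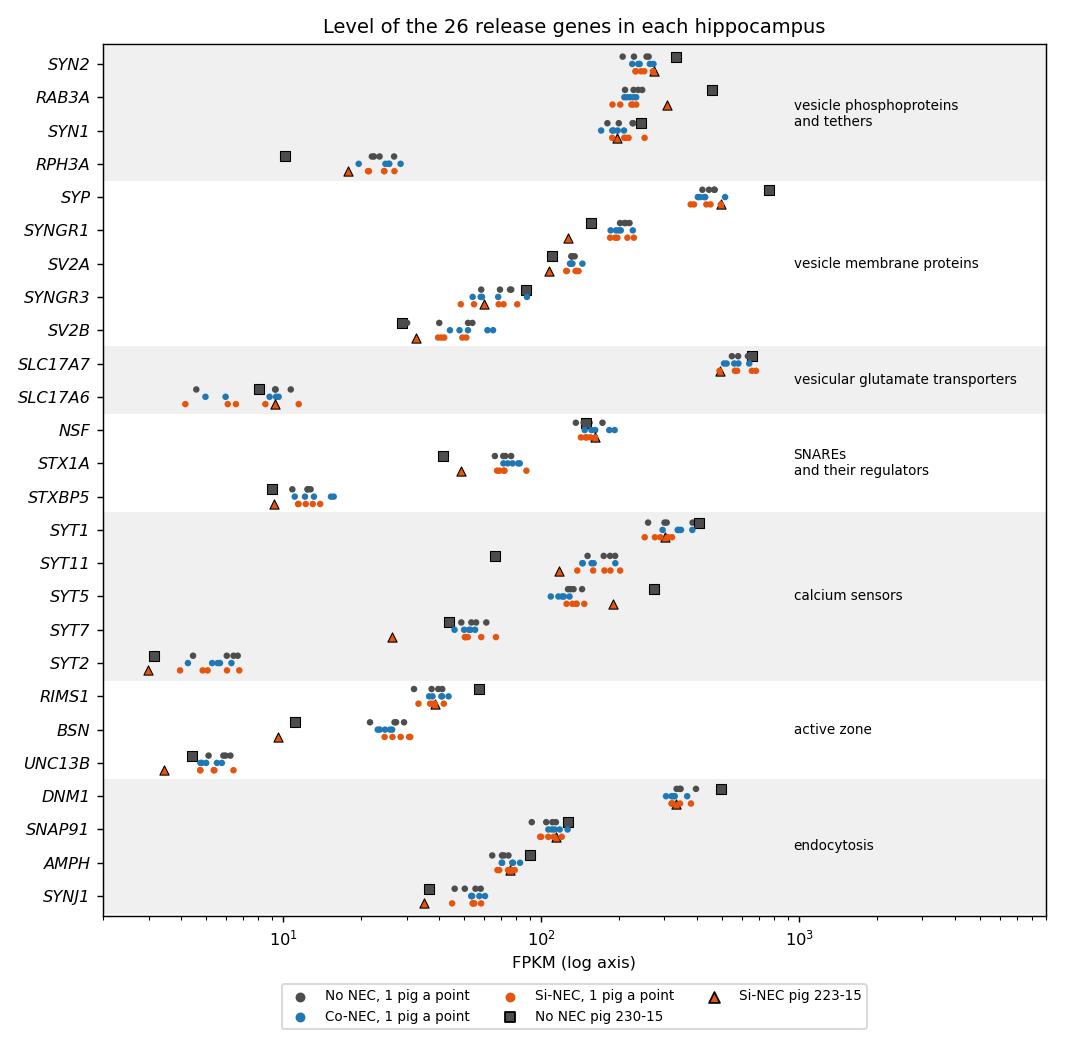
FPKM of each of the 26 release genes in each of the 16 pigs on a log axis, with genes grouped by role; each point is 1 pig, coloured by group, and the square and the triangle mark the No NEC pig 230-15 and the Si-NEC pig 223-15. The 3 groups lie over each other for nearly every gene, SLC17A7 and SYP are highest, and the 2 marked pigs lie to the right for RAB3A and SYT5 and to the left for BSN, SYT11 and SYT2.

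No release gene passed the test in any of the 3 pairwise comparisons, made with limma at an adjusted p under 0.2. In Si-NEC against No NEC, 0 of 26 members were called, against 0.00736% of all entries (1 of 13590). In Co-NEC against No NEC the counts were also 0 of 26 members, with 0.00736% of all entries called, and in Si-NEC against Co-NEC 0 of 26, with 0.0147% of all entries called (2 of 13590). The test called very few entries of any kind, so a count of 0 among 26 is what the background share gives. The study's own test, Cuffdiff at a q under 0.2, called more genes in each comparison. In simulated data of the same size, with 200 entries changed by 1 on the log2 scale, 73.5% of these were recovered for Si-NEC minus No NEC, 78% for Co-NEC minus No NEC and 89.0% for Si-NEC minus Co-NEC, beside 54, 49 and 34 called entries that were not changed. These shares belong to fits with 200 changed entries, whereas the real comparisons called 1 or 2. Recovery of changes in the real values, with 230-15 and 223-15 standing apart, was not tested. The comparisons against No NEC share the same 5 control pigs and are not independent of each other.

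Before adjustment, 0 members had a p under 0.05 in Si-NEC against No NEC, where 1.59% of all entries did so with a higher and 1.02% with a lower level in Si-NEC. For Co-NEC against No NEC the members were also 0, beside 2.12% higher and 1.32% lower among all entries. In Si-NEC against Co-NEC, 1 of 26 members was higher (SYT5), where 3.25% of all entries were, and 2 of 26 were lower (SV2B and SYT1), where 2.40% of all entries were. Without the pigs 230-15 and 223-15, SYT5 also had a p under 0.05 in Co-NEC against No NEC, and BSN in Si-NEC against Co-NEC. For no member were 2 groups free of overlap, which held for 0.155% of all entries in Si-NEC against No NEC, 0.464% in Co-NEC against No NEC and 0.545% in Si-NEC against Co-NEC. The smallest adjusted p of a member was 1 for Si-NEC minus No NEC, 0.812 for Co-NEC minus No NEC and 0.864 for Si-NEC minus Co-NEC.

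The differences were also small in size. In Si-NEC against No NEC, 9 members had a higher and 17 a lower mean, the median log2 fold change was -0.05 (0.02 over all entries), and the extremes were -0.22 for RAB3A and 0.17 for RPH3A (-0.10 and 0.00 without the 2 pigs). Without the pigs 230-15 and 223-15 that split was 14 higher and 12 lower with a median of 0.00. In Co-NEC against No NEC, 14 were higher and 12 lower, with a median of 0.03 (0.01 over all entries) and a range from -0.37 for SYT5 to 0.43 for SV2B, and the median was -0.05 without the 2 pigs. In Si-NEC against Co-NEC, 8 were higher and 18 lower, with a median of -0.06 (0.00 over all entries) and a range from -0.34 for SV2B to 0.26 for SYT5, and without pig 223-15 (the only one of the 2 in these groups) the median was -0.03.

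How large a change the data leave room for follows from the 95% intervals of the fold changes. All 26 intervals lay within a log2 change of 1 in either direction in each of the 3 comparisons. Within 0.5 in either direction lay 16 of 26 intervals for Si-NEC minus No NEC, 15 for Co-NEC minus No NEC and 22 for Si-NEC minus Co-NEC. Without the 2 pigs that stood apart, 24 of 26 lay within 0.5 in each comparison, and the median width to either side of the estimate went from 0.34 to 0.21 for Si-NEC minus No NEC, from 0.30 to 0.20 for Co-NEC minus No NEC and from 0.26 to 0.18 for Si-NEC minus Co-NEC. These 2 pigs were singled out from these same data, so narrower intervals without them follow in part from that choice. The widest interval with all pigs was that of BSN in Si-NEC against No NEC, -0.62 to 0.80.

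**Figure D2:**
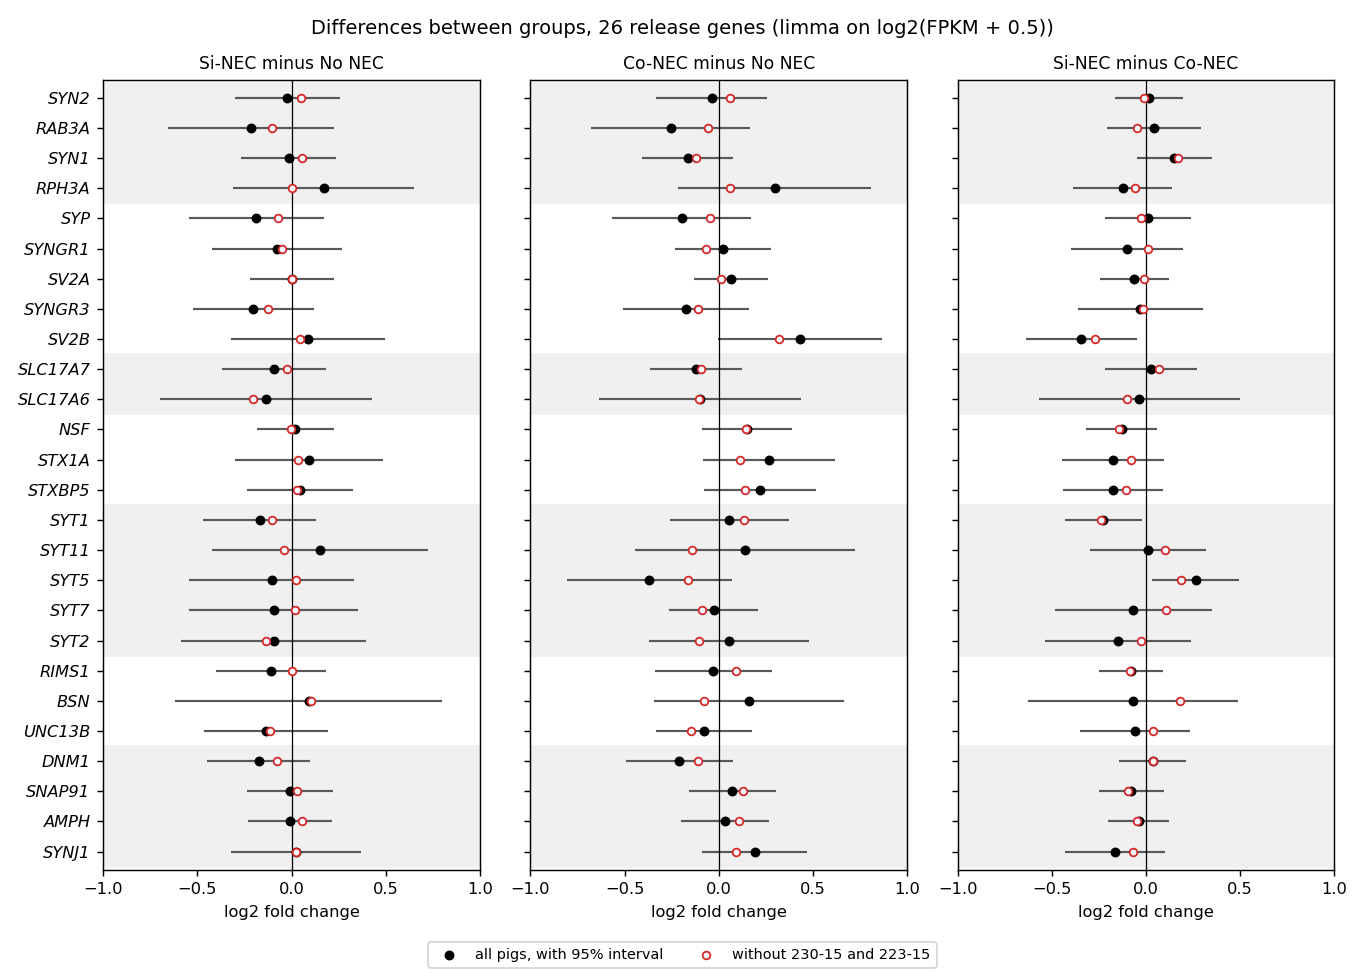
Log2 fold changes of the 26 release genes in the 3 pairwise comparisons, with black points and bars for the estimate and its 95% interval over all pigs and open red points for the estimate without the pigs 230-15 and 223-15. Nearly all bars cross 0, those of SV2B, SYT1 and SYT5 in Si-NEC minus Co-NEC do not, and the red points lie closer to 0 than the black ones for most of the larger differences.

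Among the vesicle phosphoproteins and tethers, the synapsins SYN1 and SYN2 coat the vesicle and hold it in the reserve pool, RAB3A is the small GTPase on the vesicle surface, and RPH3A (rabphilin) binds to RAB3A. Of 6 listed, 4 were measured, with means over the pigs of 251 FPKM for SYN2, 242 for RAB3A, 207 for SYN1 and 22.9 for RPH3A. SYN2 measured 207, 228, 256, 260.4 and 333 FPKM in the No NEC pigs, from low to high. The SYN2 values of the Co-NEC pigs were 225, 237, 240.4, 263 and 272 FPKM. Among Si-NEC pigs, SYN2 ran from 232 to 273 FPKM around a median of 247. The groups overlapped, and 230-15 was the highest of all 16 pigs. Log2 fold changes of SYN2 were -0.02 ± 0.13 (SE) for Si-NEC minus No NEC, -0.04 ± 0.13 for Co-NEC minus No NEC and 0.02 ± 0.08 for Si-NEC minus Co-NEC, and 0.05, 0.06 and -0.01 in this order without the pigs 230-15 and 223-15.

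SYN1 measured 180.2, 199.5, 226, 227 and 244 FPKM in the No NEC pigs, from low to high. The SYN1 values of the Co-NEC pigs were 170.5, 188, 190.5, 198 and 209 FPKM. Among Si-NEC pigs, SYN1 ran from 188 to 251 FPKM around a median of 211. Of the 6 Si-NEC pigs, 4 lay above every Co-NEC pig and the others within the Co-NEC range. The difference of SYN1 between Si-NEC and Co-NEC was 0.15 ± 0.09 on the log2 scale (SE, n = 6 and 5, limma p = 0.121, adjusted p = 0.867, exact permutation p = 0.0823). RAB3A measured 211, 228, 237, 246 and 457 FPKM in the No NEC pigs, from low to high. The RAB3A values of the Co-NEC pigs were 209.7, 215, 221, 228 and 233 FPKM. Among Si-NEC pigs, RAB3A ran from 189 to 308 FPKM around a median of 225. Pig 230-15 gave the highest RAB3A value, at 457 FPKM, and pig 223-15 the next, at 308 FPKM, while the other 14 pigs lay within a range of 1.30-fold. For RAB3A the Si-NEC minus No NEC difference was -0.22 ± 0.20 (limma p = 0.308, adjusted p = 1, exact permutation p = 0.394), and -0.10 without the 2 pigs. RPH3A, at 21 ± 6.37 FPKM in No NEC, 24.8 ± 3.24 in Co-NEC and 22.8 ± 3.24 in Si-NEC (SD), was lowest in pig 230-15, at 10.1 FPKM.

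The vesicle membrane proteins comprised SYP, the abundant membrane protein synaptophysin, its relatives synaptogyrin 1 and 3 (SYNGR1, SYNGR3), and the glycoproteins SV2A and SV2B, of which SV2A is the binding site of the antiepileptic drug levetiracetam. SYP measured 421, 446, 467, 469.6 and 761 FPKM in the No NEC pigs, from low to high. The SYP values of the Co-NEC pigs were 404, 413, 428, 431 and 515 FPKM. Among Si-NEC pigs, SYP ran from 379 to 496 FPKM around a median of 444. Apart from 230-15, all values lay between 379 and 515 FPKM with overlapping groups. The Si-NEC minus No NEC difference of SYP was -0.19 ± 0.16 (limma p = 0.274, adjusted p = 1, exact permutation p = 0.281), and -0.07 without the 2 pigs.

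SYNGR3 measured 58.4, 69.1, 75.6, 76.4 and 87.2 FPKM in the No NEC pigs, from low to high. The SYNGR3 values of the Co-NEC pigs were 54.1, 58.2, 58.8, 68 and 87.9 FPKM. Among Si-NEC pigs, SYNGR3 ran from 48.7 to 80.6 FPKM around a median of 64.1. SYNGR3 varied more than most members, by 17.1% (CV) over the 14 pigs that did not stand apart, with high and low pigs in each group. Its log2 difference between Si-NEC and No NEC was -0.20 ± 0.15 (limma p = 0.192, adjusted p = 1, exact permutation p = 0.193), and -0.12 without the 2 pigs. SYNGR1 averaged 197 FPKM, with log2 fold changes of -0.08, 0.02 and -0.10 for Si-NEC against No NEC, Co-NEC against No NEC and Si-NEC against Co-NEC, which were -0.05, -0.07 and 0.01 without the 2 pigs.

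SV2A was the steadiest gene of the set and SV2B one of the most variable. SV2A measured 128 ± 9.78 FPKM in No NEC, 133 ± 6.18 in Co-NEC and 128 ± 12 in Si-NEC (SD), with a CV of 3.91% over 14 pigs. SV2B measured 28.9, 30.2, 40.2, 51.9 and 54 FPKM in the No NEC pigs, from low to high. The SV2B values of the Co-NEC pigs were 44.2, 48.1, 51.9, 61.8 and 64.9 FPKM. Among Si-NEC pigs, SV2B ran from 32.7 to 51.1 FPKM around a median of 41.4. SV2B was highest in the Co-NEC pigs, 2 of which lay above every No NEC pig, and 4 of the 6 Si-NEC pigs lay below every Co-NEC pig. In No NEC the lowest SV2B values were those of 230-15 and 550-14.

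The SV2B difference was -0.34 ± 0.13 for Si-NEC against Co-NEC (95% interval -0.64 to -0.05, limma p = 0.0254, adjusted p = 0.864, exact permutation p = 0.0411). For Co-NEC against No NEC it was 0.43 ± 0.20 (95% interval -0.005 to 0.86, limma p = 0.0521, adjusted p = 0.812, exact permutation p = 0.103). Both were nearer to 0 without the pigs that stood apart, at -0.27 and 0.32. Between Si-NEC and No NEC, SV2B differed by 0.09 ± 0.19, and by 0.05 without these pigs.

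Vesicular glutamate transporters pump glutamate into the vesicle. SLC17A7 (VGLUT1) is known as the transporter of cortical and hippocampal neurons and SLC17A6 (VGLUT2) as that of thalamic and brain stem neurons. SLC17A7 measured 547, 579, 632, 638 and 655 FPKM in the No NEC pigs, from low to high. The SLC17A7 values of the Co-NEC pigs were 510.4, 522, 559, 580.4 and 639 FPKM. Among Si-NEC pigs, SLC17A7 ran from 490.3 to 679 FPKM around a median of 568. The ranges of SLC17A7 overlapped, with 2 Co-NEC pigs and 2 pigs with Si-NEC below every No NEC pig. For this gene the log2 fold changes were -0.09 ± 0.13 for Si-NEC minus No NEC, -0.12 ± 0.11 for Co-NEC minus No NEC and 0.03 ± 0.11 for Si-NEC minus Co-NEC, and -0.02, -0.09 and 0.07 without the pigs that stood apart. SLC17A6 averaged 7.92 FPKM and was the most variable member, from 4.16 to 11.5 FPKM, both in Si-NEC pigs, with a CV of 30.3% over 14 pigs.

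Of the SNARE proteins and their regulators, STX1A (syntaxin 1A) is the SNARE of the plasma membrane, STXBP5 (tomosyn) inhibits SNARE assembly, and NSF is the ATPase that takes spent SNARE complexes apart. NSF measured 136, 146, 149, 154 and 172 FPKM in the No NEC pigs, from low to high. The NSF values of the Co-NEC pigs were 147, 156, 162, 183 and 192 FPKM. Among Si-NEC pigs, NSF ran from 142 to 162 FPKM around a median of 153. The Co-NEC pigs reached the highest NSF levels, with 2 above every No NEC pig, and the ranges overlapped. The Si-NEC minus Co-NEC difference of NSF was -0.13 ± 0.09 (limma p = 0.161, adjusted p = 0.867, exact permutation p = 0.126).

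STX1A measured 41.4, 66, 71.1, 72.5 and 76.3 FPKM in the No NEC pigs, from low to high. The STX1A values of the Co-NEC pigs were 71.2, 74, 77.3, 81.3 and 82.4 FPKM. Among Si-NEC pigs, STX1A ran from 48.8 to 87.5 FPKM around a median of 70.2. The lowest STX1A values of the series were those of pigs 230-15 and 223-15, and 3 of the 5 Co-NEC pigs lay above every No NEC pig. For Co-NEC against No NEC the STX1A difference was 0.27 ± 0.16 (limma p = 0.120, adjusted p = 0.812, exact permutation p = 0.0556), and 0.11 without 230-15. STXBP5 measured 9.0, 10.8, 12.4, 12.4 and 12.7 FPKM in the No NEC pigs, from low to high. The STXBP5 values of the Co-NEC pigs were 11.1, 12.1, 13.1, 15.3 and 15.7 FPKM. Among Si-NEC pigs, STXBP5 ran from 9.21 to 13.9 FPKM around a median of 11.8. STXBP5 also had 3 Co-NEC pigs above every No NEC pig. Its Co-NEC minus No NEC difference was 0.22 ± 0.13 (limma p = 0.131, adjusted p = 0.812, exact permutation p = 0.135), and 0.14 without 230-15. All 3 measured genes of this role had a higher mean in Co-NEC than in No NEC and a lower mean in Si-NEC than in Co-NEC, with role medians of 0.22 and -0.17, beside 0.01 and 0.00 over all entries. These role medians were 0.14 and -0.11 without 230-15 and 223-15.

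Synaptotagmins carry the calcium sensing step. SYT1 and SYT2 trigger fast release, SYT7 is a slower, high-affinity sensor, SYT5 is a vesicle synaptotagmin related to SYT1, and SYT11 is a family member that does not bind calcium. SYT1 measured 259, 300.1, 306, 385 and 407 FPKM in the No NEC pigs, from low to high. The SYT1 values of the Co-NEC pigs were 295, 338, 340.2, 348 and 385 FPKM. Among Si-NEC pigs, SYT1 ran from 251 to 321 FPKM around a median of 295. The Si-NEC pigs lay low, with 3 of 6 below every Co-NEC pig, while the No NEC pigs spanned the whole range. SYT1 differed by -0.23 ± 0.09 between Si-NEC and Co-NEC (95% interval -0.43 to -0.02, limma p = 0.0326, adjusted p = 0.867, exact permutation p = 0.0195), and by -0.24 without 223-15. Between Si-NEC and No NEC the SYT1 difference was -0.17 ± 0.14 (limma p = 0.236, adjusted p = 1, exact permutation p = 0.219), and -0.10 without the 2 pigs.

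SYT5 measured 127, 129.8, 133, 144 and 274 FPKM in the No NEC pigs, from low to high. The SYT5 values of the Co-NEC pigs were 109, 116, 120.3, 122 and 129 FPKM. Among Si-NEC pigs, SYT5 ran from 125 to 190.0 FPKM around a median of 137. SYT5 was lowest in the Co-NEC pigs: 4 of 5 lay below every No NEC pig, and 5 of 6 Si-NEC pigs lay above every Co-NEC pig. The 2 highest values were those of 230-15 and 223-15. Between Si-NEC and Co-NEC, SYT5 differed by 0.26 ± 0.11 (95% interval 0.03 to 0.50, limma p = 0.0283, adjusted p = 0.864, exact permutation p = 0.00866), and by 0.18 without 223-15.

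Between Co-NEC and No NEC, SYT5 differed by -0.37 ± 0.20 (limma p = 0.0897, adjusted p = 0.812, exact permutation p = 0.0159), and without 230-15 by -0.16, more than 1.5 times nearer to 0, where its unadjusted limma p was 0.0406 and its adjusted p 0.806. The smallest p the exact test can give is 0.00794 for 5 against 5 pigs and 0.00216 for 6 against 5. These exact p-values are unadjusted values for genes named for their small p.

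SYT1 and SYT5 thus stood on opposite sides in Si-NEC against Co-NEC. SYT11, the second most abundant synaptotagmin measured at 159 FPKM, had log2 fold changes of 0.15 ± 0.26, 0.14 ± 0.26 and 0.01 ± 0.14 (SE) in Si-NEC against No NEC, Co-NEC against No NEC and Si-NEC against Co-NEC. Leaving out 230-15 and 223-15 turned both SYT11 differences from No NEC, the values being -0.04, -0.14 and 0.10. SYT7 at 51.5 FPKM and SYT2 at 5.22 FPKM had fold changes between -0.15 and 0.05 in these comparisons, and between -0.13 and 0.11 without the 2 pigs.

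**Figure D3:**
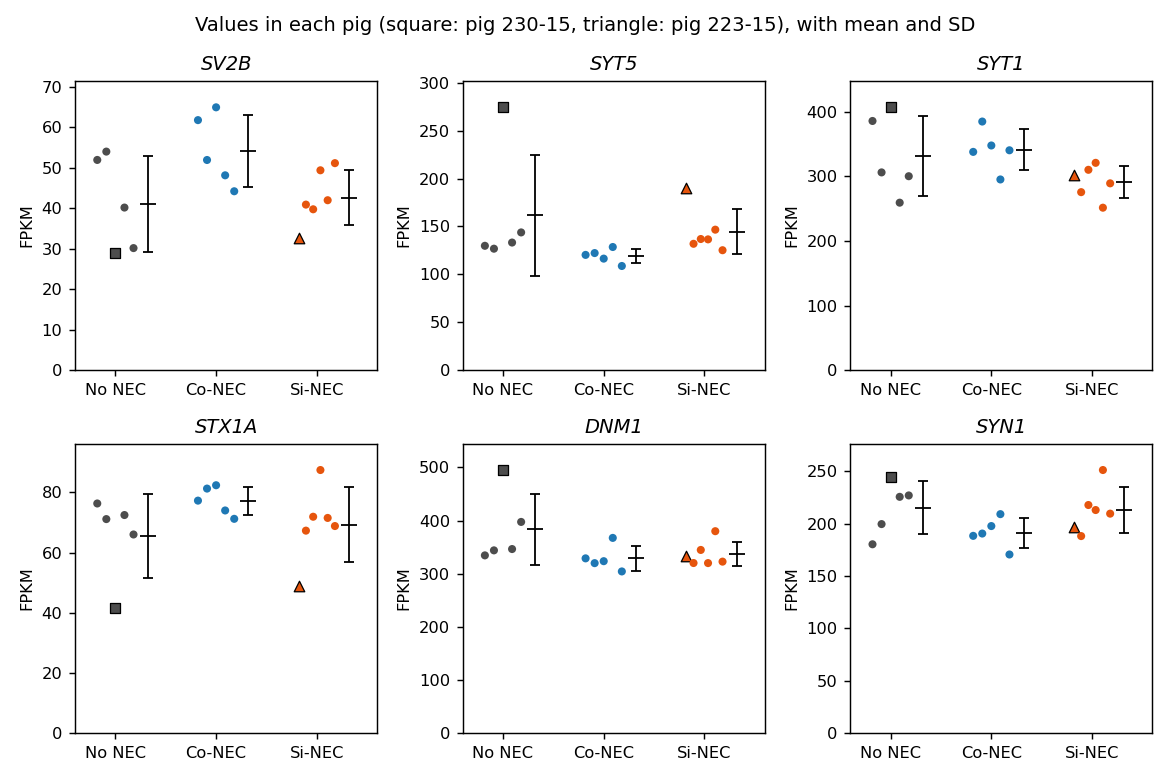
FPKM of SV2B, SYT5, SYT1, STX1A, DNM1 and SYN1 in each pig, with the mean and SD of each group to the right of its points (No NEC and Co-NEC n = 5, Si-NEC n = 6); the square is pig 230-15 and the triangle pig 223-15. SYT5 is lowest in Co-NEC, where SV2B is highest, and the 2 marked pigs carry the extreme values of SYT5 and STX1A.

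The active zone genes were the least abundant role group. RIMS1 is a scaffold that links calcium channels and vesicles, BSN (bassoon) is a giant protein of the active zone matrix, and UNC13B (Munc13-2) primes vesicles for fusion. RIMS1 measured 32.1, 37.5, 39.8, 41.2 and 57.1 FPKM in the No NEC pigs, from low to high. The RIMS1 values of the Co-NEC pigs were 36.7, 37.8, 41, 41.2 and 43.6 FPKM. Among Si-NEC pigs, RIMS1 ran from 33.4 to 41.8 FPKM around a median of 38.1. Pig 230-15 was highest and the groups overlapped. RIMS1 had log2 fold changes of -0.11 ± 0.13 for Si-NEC minus No NEC, -0.03 ± 0.14 for Co-NEC minus No NEC and -0.08 ± 0.08 for Si-NEC minus Co-NEC. Without the 2 pigs these were 0.00, 0.09 and -0.09, so that both differences from No NEC turned sign. BSN averaged 24.4 FPKM and UNC13B 5.23 FPKM.

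BSN showed how far 1 pig can set a group difference. Its level was 11.1 FPKM in 230-15 and 9.54 FPKM in 223-15, against 21.7 to 31 FPKM in the other 14 pigs. The Si-NEC minus Co-NEC difference of BSN was -0.07 ± 0.25 with all pigs and 0.18 without 223-15. Without that pig, the lowest for BSN, the unadjusted limma p was 0.0351 and the adjusted p 0.560. BSN was named after its values were seen.

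The endocytosis genes are DNM1 (dynamin 1), the GTPase that cuts the vesicle from the membrane, SNAP91 (AP180), a clathrin adaptor, AMPH (amphiphysin), which recruits dynamin, and SYNJ1 (synaptojanin 1), the lipid phosphatase that strips the clathrin coat. DNM1 measured 334, 344, 346, 397 and 495 FPKM in the No NEC pigs, from low to high. The DNM1 values of the Co-NEC pigs were 304, 319.8, 323, 329 and 367 FPKM. Among Si-NEC pigs, DNM1 ran from 319.9 to 379.9 FPKM around a median of 328. The No NEC pigs lay above most NEC pigs: 4 of 5 pigs with Co-NEC and 4 of 6 with Si-NEC lay below every No NEC pig, and 230-15 was the highest. DNM1 differed by -0.17 ± 0.13 for Si-NEC against No NEC (limma p = 0.191, adjusted p = 1, exact permutation p = 0.106). For Co-NEC against No NEC the value was -0.21 ± 0.13 (limma p = 0.134, adjusted p = 0.812, exact permutation p = 0.0873).

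Without the 2 pigs these DNM1 differences were -0.08 and -0.11. SNAP91 and AMPH had CVs of 8.26% and 6.83% over 14 pigs and log2 fold changes between -0.08 and 0.07 in the 3 comparisons (-0.10 to 0.13 without the 2 pigs). SYNJ1 measured 49.4 ± 8.49 FPKM in No NEC, 55.8 ± 3.08 in Co-NEC and 50.3 ± 8.63 in Si-NEC (SD), with its lowest values in 223-15 and 230-15.

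The largest differences between pigs ran across the groups and not along them. Against the median of the other 14 pigs, the release genes of pig 230-15 spread with an SD of 0.68 on the log2 scale. This SD was 0.45 in pig 223-15 and 0.09 to 0.24 in each of the other pigs. Over all entries tested it was larger, at 0.90 in 230-15, 0.67 in 223-15 and 0.39 to 0.48 in the others. In 230-15, 9 members (34.6%) lay above and 12 (46.2%) below all of the other 14 pigs, beside 34.8% and 23.2% of all entries. In 223-15, 3 members (11.5%) lay above and 11 (42.3%) below, beside 32.2% and 18.5% of all entries. In each of the other pigs at most 7 members lay outside the range of the remaining 13, beside 7.32% to 25.0% of all entries. These 2 pigs belong to different groups, 230-15 to No NEC and 223-15 to Si-NEC.

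All 14 members that lay outside the range of the other 14 pigs in 223-15 did so on the same side in 230-15. SYN2, RAB3A and SYT5 were above all other 14 pigs in both (11.5% of members, 23.2% of all entries tested). UNC13B, STXBP5, SYT2, BSN, SYNJ1, RPH3A, SYT7, STX1A, SYT11, SV2A and SYNGR1, 11 in all, were below the other 14 in both (42.3% of members, 12.8% of all entries). The sign was shared for 20 of 26 members (76.9%), near the 75.2% of all entries tested. The deviations in the 2 pigs had r = 0.83 and rho = 0.82 across the 26 members, and 0.59 and 0.66 across all 13590 entries. These correlations describe 2 libraries measured against the same 14 pigs, and genes are not independent replicates.

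The deviations of the low members passed 1 on the log2 scale, a 2-fold difference, for SYT11, RPH3A and BSN in 230-15 and for BSN in 223-15. In 230-15 the deviation was -1.32 for SYT11, -1.24 for RPH3A and -1.21 for BSN, and in 223-15 it was -1.42 for BSN, -0.99 for SYT7 and -0.81 for SYT2. The high members were SYT5, at 1.08 in 230-15 and 0.55 in 223-15, and RAB3A, at 1.02 and 0.45. SYP was high in 230-15, at 0.81, and lay at 0.19 in 223-15.

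The 12 tested neuronal genes outside the release machinery shared their sign between both pigs in 12 of 12 cases, beside 75.2% of all entries. Of these 12 genes, 4 (MAP2, SNCB, STMN2 and UCHL1) lay above the other 14 pigs in both and 2 (MAPT and CAMK2A) below. Among all entries, 23.2% lay above and 12.8% below in both. Their summed level was 4439 FPKM in 230-15 and 4122 FPKM in 223-15, the highest of their groups. The FPKM sums over all entries were also highest in these 2 pigs, at 864931 and 823320. The summed level of the 26 release genes was 4664 FPKM in 230-15, the highest of all pigs, and 3588 FPKM in 223-15, inside the range of the Si-NEC pigs. As a share of the summed FPKM of all entries, the release genes made up 0.539% in 230-15 and 0.436% in 223-15, the lowest of the 16 pigs, against 0.556% to 0.676% in the others. What sets these 2 libraries apart was not tested.

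**Figure D4:**
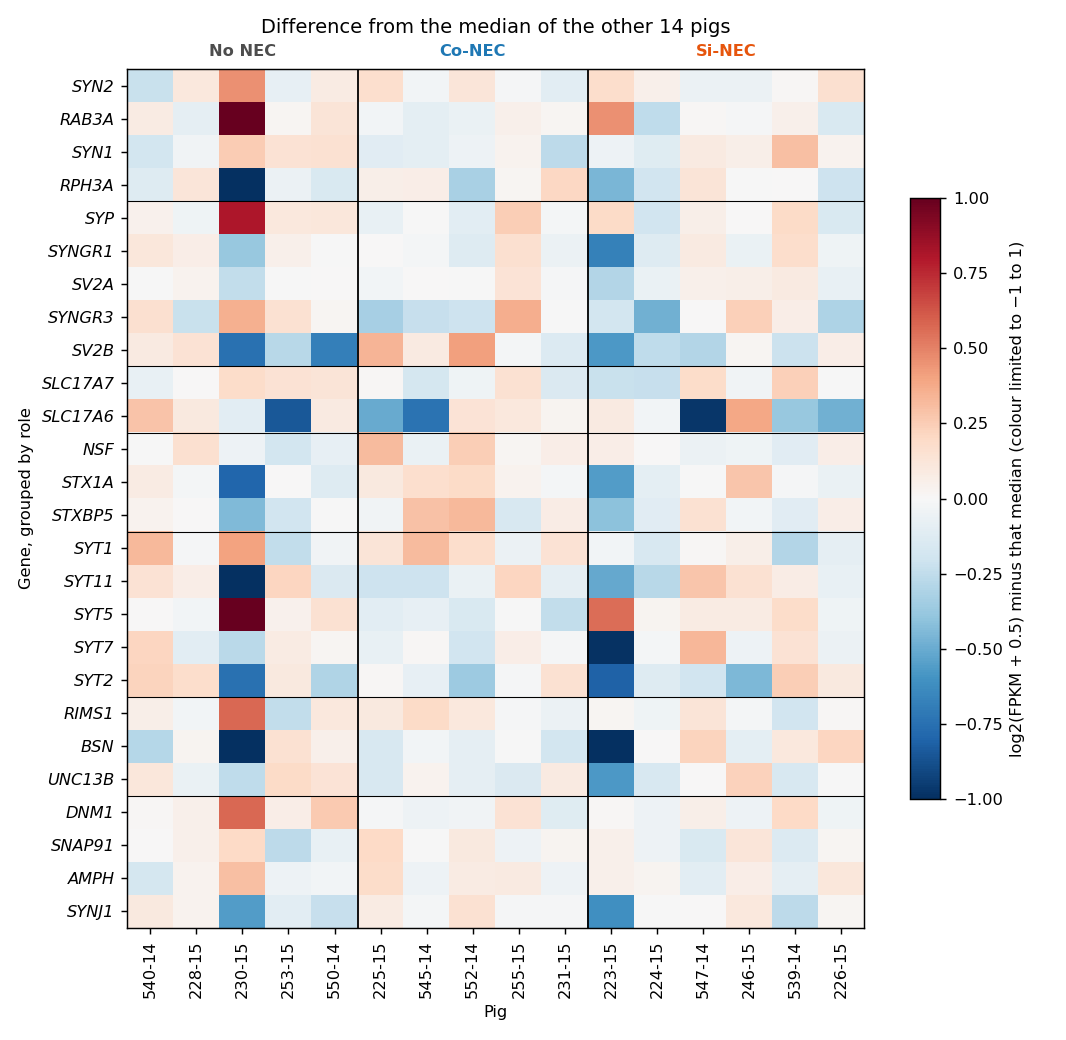
Difference of each release gene in each pig from the median of the 14 pigs other than 230-15 and 223-15, on the log2(FPKM + 0.5) scale, with pigs in columns by group and genes in lines by role (red higher, blue lower). The columns of 230-15 and 223-15 hold most of the strongest colours, SLC17A6 is also far from the median in several other pigs, and no group of pigs shares a colour over a whole role.

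**Figure D5:**
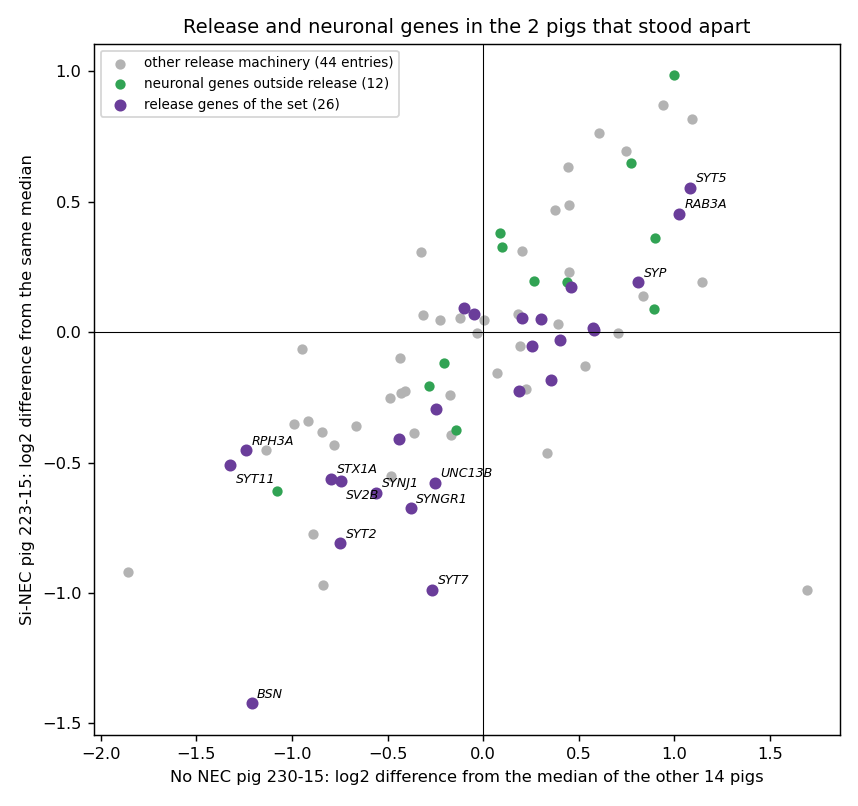
Log2 difference from the median of the other 14 pigs in the Si-NEC pig 223-15 (vertical) against that in the No NEC pig 230-15 (horizontal), each point 1 gene: 26 release genes in purple, 44 entries of other release machinery in grey and 12 neuronal genes outside release in green. The purple points run from BSN, SYT11 and RPH3A at the lower left to SYT5 and RAB3A at the upper right.

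Ratios between related members within a pig do not depend on the scaling of that pig. SLC17A7 exceeded SLC17A6 by 51.3 to 139 (median 68.1) in No NEC, 58.4 to 102 (median 68.3) in Co-NEC and 49.1 to 157 (median 76) in Si-NEC, so VGLUT1 transcripts dominated in every pig. The ratio of SYT1 to SYT5 was 1.48 to 2.97 (median 2.09) in No NEC, 2.3 to 3.15 (median 2.99) in Co-NEC and 1.59 to 2.35 (median 2.18) in Si-NEC. This ratio joins the members with the smallest exact p in Si-NEC against Co-NEC and is given as a description.

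The 5 Co-NEC ratios of SYT1 to SYT5 lay at 2.30 or above and the 6 Si-NEC ratios at 2.35 or below, with the lowest ratios of the series in 230-15 (1.48) and 223-15 (1.59). SV2A to SV2B was 2.49 to 4.35 (median 3.26) in No NEC, 2.02 to 3.0 (median 2.54) in Co-NEC and 2.44 to 3.41 (median 3.17) in Si-NEC. SYN1 to SYN2 was close to even, between 0.693 and 1.03 over the 16 pigs, and SYNGR1 to SYNGR3 lay between 1.79 and 3.79. The ratio of the fast sensors SYT1 and SYT2 had a median of 58.8 and was highest in 230-15, at 129.

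Between pigs the release genes varied less than other entries. Their median CV over the 16 pigs was 14.6%, against 22.4% for all entries tested and 19.3% for the 8806 entries within the members' range of levels. Over the 14 pigs that did not stand apart, these values were 9.86%, 16% and 13.4%, and 22 of 26 members had a CV under 15%. The members' range ran from 5.22 to 582 FPKM, with a median of 92.5 FPKM, against 9.44 FPKM over all entries tested. The 8806 entries were therefore not matched to the members by level. The CV of low entries also holds counting error that is unknown here, and whether the lower spread is particular to release genes was not tested.

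The release machinery outside the 26 genes also held no called entry. Of 63 further genes of the release machinery, 43 were found and 44 entries tested, among them SLC32A1, the transporter of inhibitory vesicles, at 38.1 FPKM. CPLX4 and VAMP7 were listed at 0 in every pig. None of the 44 was called in any comparison.

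The median log2 fold change of these 44 entries was -0.03 for Si-NEC minus No NEC, 0.01 for Co-NEC minus No NEC and -0.07 for Si-NEC minus Co-NEC (-0.01, 0.05 and -0.04 without the 2 pigs). In that last comparison 12 were higher and 32 lower, while all entries tested split nearly evenly. Unadjusted limma p under 0.05 was reached by SYT12 (lower in Si-NEC, against No NEC) and by UNC13C and CADPS2 (higher in Co-NEC, against No NEC). Both entries of the gene RAB3D also did so (lower in Si-NEC, against Co-NEC). These were 1, 2 and 2 of the 44 entries. The matching shares of all entries tested, in the same directions, were 1.02%, 2.12% and 2.4%. CADPS2, a priming factor for dense core vesicles, measured 9.98 ± 1.23 FPKM in No NEC, 13.5 ± 1.54 in Co-NEC and 12 ± 1.81 in Si-NEC (SD). SYT12 measured 29.5 ± 2.6, 25.4 ± 3.85 and 23.1 ± 3.18 FPKM in the same order.

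As a reading of neuronal content, 12 of 22 neuronal genes outside release were tested, and none was called. Their median log2 fold change was 0.03 for Si-NEC minus No NEC, 0.03 for Co-NEC minus No NEC and 0.01 for Si-NEC minus Co-NEC (0.04, 0.03 and 0.05 without the 2 pigs). The summed level of the 12 was 2859 to 4439 FPKM in No NEC, 3030.0 to 3220.0 in Co-NEC and 2923 to 4122 in Si-NEC, and that of the 26 release genes 3742 to 4664, 3564 to 3971 and 3385 to 3938 FPKM. With each pig centred on its mean over the neuronal genes, the median of the release genes was -0.07 for Si-NEC minus No NEC, 0.05 for Co-NEC minus No NEC and -0.11 for Si-NEC minus Co-NEC.

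Markers of other cell types and regions are given beside these values, as median log2 fold changes for Si-NEC minus No NEC, Co-NEC minus No NEC and Si-NEC minus Co-NEC, with the medians without 230-15 and 223-15 in parentheses, and no entry of these lists was called. They were 0.12, 0.15 and 0.03 (-0.05, 0.04 and -0.05) for 4 astrocyte entries (ALDH1L1 was listed at 0 and not tested). The medians were -0.03, 0.07 and -0.11 (-0.03, 0.19 and -0.23) for 6 mature oligodendrocyte entries and 0.01, -0.05 and 0.06 (-0.11, -0.11 and 0.01) for 5 oligodendrocyte precursor entries. For 5 microglia entries the medians were -0.09, -0.09 and -0.15 (-0.21, 0.01 and -0.19), for 4 endothelial entries 0.02, -0.06 and 0.01 (-0.04, -0.25 and 0.12), and for 6 mural and meningeal entries -0.06, -0.12 and 0.03 (-0.15, -0.19 and 0.02). For 3 choroid plexus entries they were -0.08, -0.14 and 0.05 (-0.16, -0.12 and -0.06), and for 2 erythroid entries (HBB and ALAS2) -0.73, -0.41 and -0.32 (-1.17, -0.71 and -0.46).

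The neutrophil list had 1 tested entry, S100A8, at 1.74 ± 0.912 FPKM in No NEC, 1.37 ± 0.635 in Co-NEC and 12.5 ± 9.26 in Si-NEC (SD), with CSF3R listed at 0. The 5 hippocampal neuron entries had medians of 0.12, -0.08 and 0.15 (0.22, -0.11 and 0.22), and the 5 thalamus and interneuron entries -0.10, 0.08 and -0.12 (-0.18, -0.05 and -0.11). The part of cell composition in the values of the release genes was not tested.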

How the data were processed

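Total RNA from the left hippocampus of 16 preterm pigs was sequenced by the authors, who trimmed the reads, aligned them to Sscrofa10.2 with TopHat2 2.1.1 and estimated expression with Cufflinks 2.2.1, per their methods and processing notes. The deposited values are FPKM per gene and pig. The sources used here name no scaling between pigs. The values hold no read counts, so depth, counting error and detection limits are unknown.

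Groups and sexes were taken from the labels, as was the number of pigs. Of 24594 entries, 1779 identical ones were dropped. Ensembl identifiers were named through a reference table (11462 of 22815 entries), and genome positions and sequences were not used here. Entries that averaged 0.5 FPKM or more were tested on log2(FPKM + 0.5), so the fold changes understate those of low genes, with limma 3.58.1 in R 4.3.3 (lmFit, eBayes with trend), each pair of groups fitted on its own without covariates, Benjamini-Hochberg adjustment over all 13590 entries and the study's threshold of 0.2. For single members, the difference in mean log2 value was also tested by exact permutation (two-sided). The fits were tested on simulated data. Tables and plots used pandas 2.3.3, numpy 2.4.6, matplotlib 3.10.9 and scipy 1.17.1 under Python 3.11.15.

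The members, roles and lists were chosen with earlier results of these data known. Values per pig are given for the 5 members with the smallest p in each comparison and the most abundant member of each role. BSN was added after its values were seen. The lists covered neurons, other release machinery, astrocytes, mature oligodendrocytes, oligodendrocyte precursors, microglia, endothelial, mural and meningeal, choroid plexus, erythroid and neutrophil cells, hippocampal neurons, and thalamus and interneurons. Results were recomputed with a pseudocount of 0.1 or 1, with the minimum mean raised to 1 FPKM or dropped, with median-of-ratios scaling, with the 3 groups fitted together, with sex or the suffix of the pig number as a covariate, without a trend, with array weights, with entries at 0 left out, at an adjusted p of 0.05, centred on the neuronal genes, without each pig and without 230-15 and 223-15. Labels number no replicates across groups. Each pig is 1 animal, and litters are not given in the labels.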

Additional observations from a re-analysis of the deposited data

Results flagged for a closer look

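Dixon's 95% criterion, with a nominal rate of about 1 in 20, marks a highest or lowest pig far from the others of its group. It did so in 11 of the 78 sets examined (26 release genes in 3 groups). The No NEC pig 230-15 gave 6 of these: RAB3A at 457 FPKM (next pig 246), SYT5 at 274 (next 144) and SYP at 761 (next 469.6) were high, and RPH3A at 10.1 (next 22), SV2A at 110.4 (next 131) and SYNGR1 at 156 (next 202) were low.

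The Si-NEC pig 223-15 gave 3: RAB3A at 308 FPKM (next pig 233) and SYT5 at 190.0 (next 147) were high, and BSN at 9.54 (next 24.7) was low. The Co-NEC pig 255-15 gave the remaining 2, SV2A at 144 FPKM (next pig 132) and SYP at 515 (next 431), both high. The 78 sets reuse the same pigs and are not independent of each other. Of the 11 marked sets, 9 came from 230-15 and 223-15. In these pigs 58.0% and 50.7% of all entries tested lay outside the range of the other 14. The share of marked sets over all entries was not tested.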

How the results depend on the processing

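No release gene was called under any of the alternatives, in 71 recomputed counts, and the smallest adjusted p of a member was 0.914 for Si-NEC against No NEC (shared by several members), 0.502 for Co-NEC against No NEC (shared by several members, array weights) and 0.208 for Si-NEC against Co-NEC (SYT1, array weights). Of 1690 recomputed fold changes of single members, 120 changed sign, all of members that were not called. The unadjusted p of SYT5 in Si-NEC against Co-NEC was under 0.05 in 20 of 23 alternatives, that of SV2B in 20 and that of SYT1 in 15. In Co-NEC against No NEC, where no member had such a p with all pigs, SV2B did in 6 of 22 alternatives and SYT5 in 3. The alternatives refit nearly the same pigs, and these genes were named for their small p, so the counts are not independent support.

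The number of called entries among all 13590 was 1 for Si-NEC against No NEC, and 2 with the suffix covariate, 4 with array weights, 0 without entries at 0 and 1 to 3 when each pig was left out. For Co-NEC against No NEC it was 1, and 4 without a filter, 0 without entries at 0 and 1 to 2 when each pig was left out (2 without 540-14 or 225-15). For Si-NEC against Co-NEC it was 2, and 1 with a pseudocount of 0.1, without a filter, with all 3 groups in one fit, with the sex covariate, with the suffix covariate, without 223-15 and 230-15 and at an adjusted p under 0.05, 201 with array weights, 0 without entries at 0 and 1 to 12 when each pig was left out (12 without 547-14, 5 without 255-15). The cause was not tested.

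The median fold change of the members in Co-NEC against No NEC was 0.027, and -0.0588 with array weights, -0.0520 without 223-15 and 230-15 and -0.0520 (without 230-15) to 0.0431 (without 540-14) when each pig was left out. No paired analysis was possible because the labels give no replicate numbers. The unknown depth and the groups of 5 and 6 pigs limit what can be seen.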
